A study of Mus musculus with 24 samples.

Results

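The 8 genes of the sarcomeric troponin complex, *Tnnt1*, *Tnnt2*, *Tnnt3*, *Tnni1*, *Tnni2*, *Tnni3*, *Tnnc1* and *Tnnc2*, were taken by symbol from 53392 genes quantified in 24 bulk RNA-seq libraries, and all 8 passed the filter on low counts in every comparison. The libraries fall into 8 groups of 3: FiMuSCs, AMuSCs, primary myoblasts and myotubes, each from WT (C57BL/10ScSnJ) and *mdx* (C57BL/10ScSn-Dmd mdx/J) mice. *mdx* mice carry a mutation of *Dmd*, the dystrophin gene, and are a model of Duchenne muscular dystrophy. Every mouse, controls included, also carried the Pax7-nGFP reporter, which labels muscle stem cells (MuSCs) with nuclear GFP. FiMuSCs, the freshly isolated MuSCs, came from resting hindlimb muscle. AMuSCs, the activated MuSCs, came from hindlimb muscle 3 days after an injection of 10 µM cardiotoxin (CTX), which destroys myofibres and starts regeneration. Both were sorted as GFP+ and ITGA7+ cells that lacked CD31, CD45, SCA1 and CD11b, and so by a reporter and surface proteins rather than by any troponin. Myoblasts were instead isolated with magnetic beads and expanded in culture. Myotubes were the same kind of culture after 2 days in low serum. The ages of the mice behind these libraries, and whether the cells of several mice were pooled, are not given in the sources used here. Sorted and cultured samples went through different RNA extraction kits, and kit cannot be told apart from culture.

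Troponin sits on the actin filament of striated muscle and makes contraction depend on calcium. It has 3 subunits: troponin T anchors the complex to tropomyosin, troponin I holds actin and myosin apart at rest, and troponin C binds calcium and releases that inhibition. Slow fibres use *Tnnt1*, *Tnni1* and *Tnnc1*, fast fibres use *Tnnt3*, *Tnni2* and *Tnnc2*, and adult heart muscle uses *Tnnt2*, *Tnni3* and *Tnnc1*. Developing and regenerating skeletal muscle is also known to express *Tnnt2* and the slow isoforms, and a quiescent MuSC builds no sarcomere.

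Most of the genes stand in pairs of a T and an I gene. On GRCm38, *Tnnt1* (chromosome 7, 4504570 to 4516382, minus strand) and *Tnni3* (chromosome 7, 4518305 to 4524229, minus strand) lie 1922 bases apart. *Tnnt3* (chromosome 7, 142498836 to 142516009, plus strand) lies 54425 bases from *Tnni2* (chromosome 7, 142441808 to 142444410, plus strand). *Tnnt2* (chromosome 1, 135836354 to 135852260, plus strand) lies 25364 bases from *Tnni1* (chromosome 1, 135779434 to 135810989, plus strand). The C genes stand alone, *Tnnc1* on chromosome 14 (31208312 to 31211729, plus strand) and *Tnnc2* on chromosome 2 (164777161 to 164779967, minus strand). Of the annotated exon bases of *Tnnc2*, 592 of 800 (74.0%) also lie in exons of *Ube2c*, a cell cycle gene on the opposite strand, and the strand setting of the quantification is not given in the sources used here. *Ube2c* stood at 44.2 to 80.4 TPM in AMuSCs, 69.5 to 91.2 TPM in myoblasts, and 1.95 to 8.13 TPM in FiMuSCs and myotubes. Its part in the *Tnnc2* values was not tested. *Tnni3* shares 86 of 2063 exon bases with *Dnaaf3* on the same strand, while *Tnnc1* and *Tnnt3* share no exon base with the genes they overlap, *Nisch* and *Prr33*.

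RefSeq promoters (GRCm38.p6, 250 bases before to 50 after a start) matched 6 of the 8 genes, all but *Tnnt3* and *Tnni2*. The promoters of 5 genes that differed between the cell states or genotypes are shown 5′ to 3′ on the strand of the gene, with matches to an E-box (CANNTG, bound by MYOD1 and myogenin), an MCAT element (CATTCC, bound by TEAD factors) and a TATA box (TATAAA) in capitals. Both strands were searched, and the MCAT match of *Tnnc1* is on the other strand. No matches shown overlapped. They are *Tnnt1* (chr7:4515926-4516225, minus strand), *Tnnt2* (chr1:135836084-135836383, plus strand), *Tnni1* (chr1:135799171-135799470, plus strand), *Tnnc1* (chr14:31208062-31208361, plus strand) and *Tnnc2* (chr2:164779685-164779984, minus strand).
Tnnt1: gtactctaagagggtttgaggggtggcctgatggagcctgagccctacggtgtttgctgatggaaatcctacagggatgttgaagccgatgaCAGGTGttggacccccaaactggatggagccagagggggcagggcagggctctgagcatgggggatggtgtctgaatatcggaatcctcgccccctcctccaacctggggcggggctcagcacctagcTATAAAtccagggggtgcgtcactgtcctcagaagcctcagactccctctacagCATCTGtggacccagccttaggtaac
Tnnt2: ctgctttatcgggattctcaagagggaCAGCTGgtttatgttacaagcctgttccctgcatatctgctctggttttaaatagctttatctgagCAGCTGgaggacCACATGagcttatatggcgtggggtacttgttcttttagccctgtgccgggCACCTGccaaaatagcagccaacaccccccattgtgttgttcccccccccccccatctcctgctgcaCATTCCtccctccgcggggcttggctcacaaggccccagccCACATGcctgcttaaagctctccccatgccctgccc
Tnni1: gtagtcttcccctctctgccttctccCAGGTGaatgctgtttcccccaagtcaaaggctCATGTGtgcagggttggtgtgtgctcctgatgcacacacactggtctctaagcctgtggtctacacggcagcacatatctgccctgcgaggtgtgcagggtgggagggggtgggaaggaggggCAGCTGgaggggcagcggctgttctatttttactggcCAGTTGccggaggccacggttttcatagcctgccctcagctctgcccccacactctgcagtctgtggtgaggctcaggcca
Tnnc1: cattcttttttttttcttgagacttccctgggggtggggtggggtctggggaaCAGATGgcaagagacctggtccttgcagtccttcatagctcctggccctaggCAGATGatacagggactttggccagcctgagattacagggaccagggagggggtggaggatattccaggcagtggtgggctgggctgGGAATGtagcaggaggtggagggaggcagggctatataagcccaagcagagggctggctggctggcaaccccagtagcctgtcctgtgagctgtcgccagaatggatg
Tnnc2: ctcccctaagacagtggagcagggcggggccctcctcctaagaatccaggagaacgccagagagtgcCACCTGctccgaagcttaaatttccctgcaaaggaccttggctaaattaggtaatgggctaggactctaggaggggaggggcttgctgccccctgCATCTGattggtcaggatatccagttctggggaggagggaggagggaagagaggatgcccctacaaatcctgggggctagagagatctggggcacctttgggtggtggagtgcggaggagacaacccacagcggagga
The tables hold a second start for *Tnnt2* (chr1:135836739-135837038, plus strand) and *Tnni1* (chr1:135799261-135799560, plus strand), and the window of lower coordinates is shown for both. In the windows shown *Tnnt2* held 5 E-boxes and *Tnni1* 4, and in the second windows they held 2 each, as did *Tnnt1*, *Tnnc1* and *Tnnc2*. *Tnnt1* alone of the 5 held TATAAA, which began 30 bases before the start. *Tnnt2* and *Tnnc1* held 1 MCAT match each in the windows shown, and the second window of *Tnnt2* held 0. None of these 7 windows held a match to the MEF2 consensus or the CArG box. Of 32851 RefSeq promoters of this length, 72.3% held an E-box, 14.7% an MCAT match, 13.6% TATAAA, 3.19% the MEF2 consensus and 1.63% a CArG box. A match describes the letters of a window and says nothing of binding.

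Expected counts, the estimated reads per gene, summed to between 37280196 and 64429222 per library, and replicates had Spearman correlations of 0.947 to 0.986 over genes. *Dmd* was lower in *mdx* than in WT FiMuSCs (45.1 ± 2.01 against 64.9 ± 4.22 TPM, mean ± SD, n = 3, edgeR adjusted p = 0.00437) and myotubes (3.65 ± 0.317 against 22.3 ± 1.75 TPM, adjusted p = 0.000217), and did not differ by the test in AMuSCs (adjusted p = 0.301) or myoblasts (adjusted p = 0.819). The labelled states were checked against sums of marker genes in TPM. MuSC markers summed to 943 to 1133 in FiMuSCs and 148 to 247 in myoblasts, proliferation markers to 331 to 599 in AMuSCs and 4.99 to 60.4 in FiMuSCs and myotubes together, and early differentiation markers to 2549 to 3633 in myotubes. A few libraries stood apart from the rest of their group. In WT AMuSC replicate 2 the 8 mature myofibre markers summed to 131 TPM, against 39.8 and 34.0 in its partners. In WT and *mdx* myoblast replicate 2 the same markers summed to 173 and 92.1 TPM, against 22.8 to 41.8 in the other 4 myoblast libraries, and all 8 markers were detected in every group. In *mdx* AMuSC replicate 1 the 6 leukocyte markers summed to 2145 TPM, against 57.7 and 153 in its partners and 4.43 to 11.9 in WT AMuSCs. In *mdx* myotube replicate 1 the 6 smooth muscle and pericyte markers summed to 895 TPM, against 312 in each of its partners. Gene list results are not given without that myotube library. Troponin and gene list results that rest on these libraries are given with and without them, unless stated. In bulk RNA, fewer cells of a type and less RNA per cell cannot be told apart.

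Troponin transcripts were rare in sorted MuSCs and far more abundant in myotubes. The 8 genes together took 0.0129 to 0.0207% of all TPM in FiMuSCs, 0.0148 to 0.0763% in AMuSCs, 0.0220 to 0.136% in myoblasts and 1.63 to 2.25% in myotubes. TPM is a level per length of transcript, scaled to a fixed total per library. The sums depend on short annotated transcripts, since *Tnnc2*-202, a processed transcript of 296 bases, took 51.2% of the *Tnnc2* TPM but 10.3% of its reads, and *Tnni2*-208 (345 bases) took 59.5% of the TPM and 27.7% of the reads of *Tnni2*. Levels between genes are therefore estimates.

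**Figure D1:**
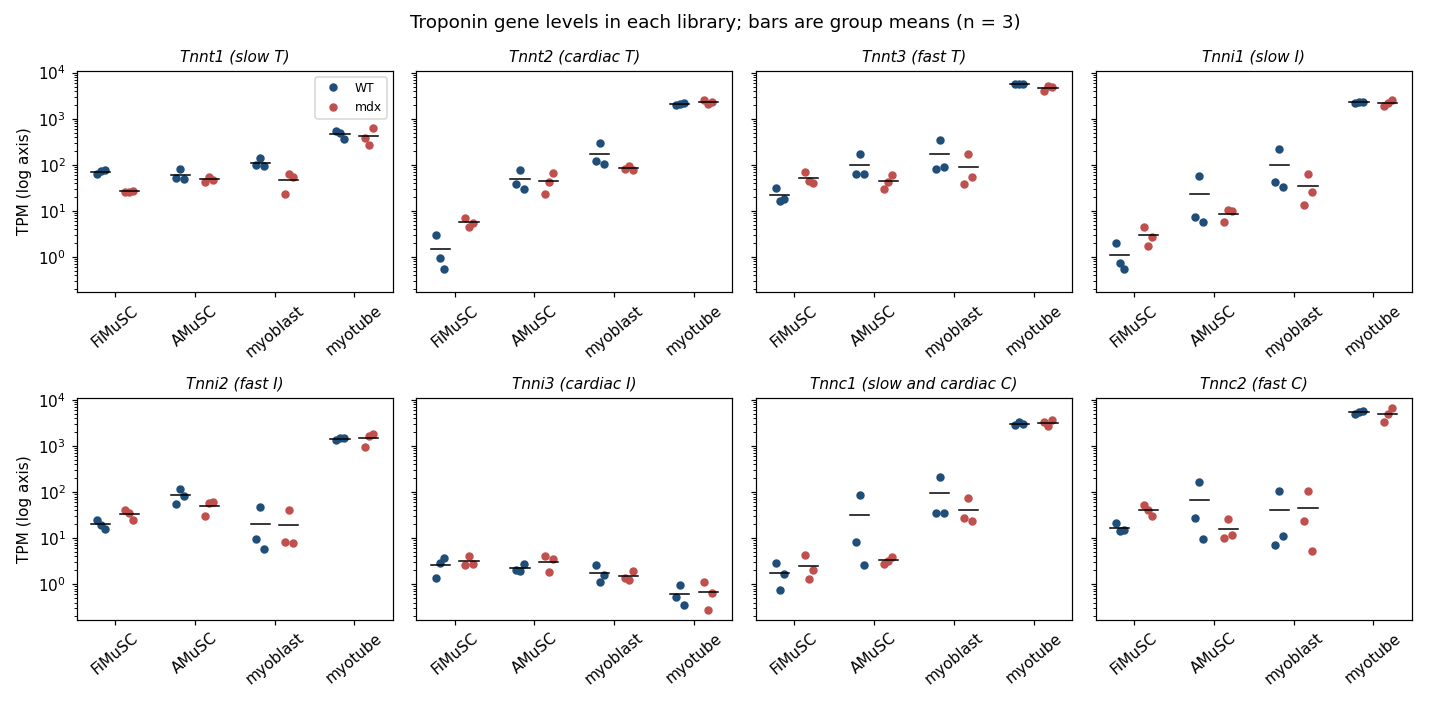
TPM of each troponin gene (log axis) in 24 libraries, by state, with WT in blue and *mdx* in red and a bar at each group's mean (n = 3). *Tnnt1* is the leading troponin in WT FiMuSCs at 62.3 to 76.1 TPM, 7 genes are highest in myotubes, and *Tnni3* stays at or below 4.04 TPM.

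*Tnnt1*, the slow troponin T, was the most abundant troponin of WT FiMuSCs, with 62.3, 73.3 and 76.1 TPM in the 3 libraries. In *mdx* FiMuSCs it stood at 26.2, 26.1 and 27.2 TPM. All 3 *mdx* libraries lay below all WT libraries. Levels in AMuSCs were 52.2, 82.3 and 48.1 TPM in WT and 41.9, 55.1 and 47.1 TPM in *mdx*. In myoblasts they were 97.2, 140 and 95.3 TPM in WT and 23.6, 63.1 and 53.7 TPM in *mdx*, again without overlap. Myotubes held 537, 493 and 364 TPM in WT and 387, 276 and 620 TPM in *mdx*. In order of mean TPM the groups ran from WT and *mdx* myotubes through WT myoblasts, WT FiMuSCs, WT AMuSCs, *mdx* AMuSCs and *mdx* myoblasts to *mdx* FiMuSCs. The ranges of neighbours in this order overlapped except between *mdx* myotubes and WT myoblasts and between WT myoblasts and WT FiMuSCs. The group means were 465 ± 90.2 TPM (SD, n = 3) in WT myotubes and 70.6 ± 7.33 TPM in WT FiMuSCs, and 26.5 ± 0.627 TPM in *mdx* FiMuSCs.

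*Tnnt2*, the cardiac troponin T, was close to the floor in WT FiMuSCs at 2.96, 0.969 and 0.562 TPM (112, 53 and 14 reads). *mdx* FiMuSCs held 6.91, 4.58 and 5.55 TPM, all above the WT libraries. AMuSCs held 38.2, 77.4 and 30.0 TPM in WT and 23.7, 42.2 and 66.6 TPM in *mdx*, and these ranges overlapped. Myoblasts held 122, 290.1 and 106 TPM in WT and 81.7, 96.4 and 78.0 TPM in *mdx*, with the *mdx* libraries below the WT libraries. Myotubes held 1986 to 2143 TPM in WT and 2067 to 2590 TPM in *mdx*, which overlapped. The groups ran from myotubes through myoblasts and AMuSCs to FiMuSCs, and neighbours in this order overlapped only where both were myotubes or both AMuSCs.

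*Tnnt3*, the fast troponin T, was measured at 31.3, 16.4 and 18.4 TPM in WT FiMuSCs and 69.1, 45.5 and 41.1 TPM in *mdx* FiMuSCs, without overlap. In AMuSCs the WT libraries stood at 64.2, 174 and 63.6 TPM and the *mdx* libraries at 29.2, 42.3 and 60.7 TPM, just below them. In myoblasts *Tnnt3* ranged from 80.7 to 346.6 TPM in WT and from 38.9 to 175 TPM in *mdx*, and replicate 2 was the highest library of both genotypes. In myotubes it reached 5722, 5625 and 5726 TPM in WT, above the 3928, 5112 and 4988 TPM of *mdx*. It was the most abundant troponin T of myotubes by TPM. By reads *Tnnt2* exceeded it in *mdx* myotube replicates 1 and 3 (113350 against 83818 and 191164 against 189749), and not in *mdx* replicate 2 or in WT.

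*Tnni1*, the slow troponin I, was listed at 1.97, 0.755 and 0.553 TPM in WT FiMuSCs and 4.52, 1.69 and 2.73 TPM in *mdx* FiMuSCs. In WT AMuSCs replicate 2 held 56.0 TPM, and the other libraries held 7.49 and 5.62 TPM beside the 5.64 to 10.7 TPM of *mdx* AMuSCs. Myoblasts showed the same outlying replicate, with 216 TPM in WT replicate 2 against 41.7 and 33.5 TPM, and 63.9 TPM in *mdx* replicate 2 against 13.7 and 26.2 TPM. Myotubes held 2195 to 2318 TPM in WT and 1857 to 2499 TPM in *mdx*.

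*Tnni2*, the fast troponin I, was the leading troponin I of sorted cells by TPM. It stood at 25.0, 19.5 and 15.7 TPM in WT FiMuSCs and 40.7, 35.3 and 25.2 TPM in *mdx* FiMuSCs. In AMuSCs it reached 53.8, 117 and 83.9 TPM in WT and 30.5, 59.1 and 61.4 TPM in *mdx*. *Tnni2* had a lower mean in myoblasts (20.8 TPM in WT and 19.2 TPM in *mdx*) than in AMuSCs of the same genotype (85.0 and 50.3 TPM), and the comparison was not tested because kit and culture cannot be told apart from the state. Without the replicate 2 libraries, myoblasts held 5.82 to 9.41 TPM. Myotubes held 1345 to 1473 TPM in WT and 942 to 1845 TPM in *mdx*. *Tnni3*, the adult cardiac troponin I, had 7 to 119 reads per library and 0.283 to 4.04 TPM. Its highest transcript by TPM is annotated as a retained intron (54.1% of its TPM), and its lowest levels were those of myotubes, at 0.610 ± 0.309 TPM in WT and 0.690 ± 0.426 TPM in *mdx*.

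*Tnnc1*, the troponin C of slow and heart muscle, was listed at 2.93, 0.744 and 1.64 TPM in WT FiMuSCs and 4.23, 1.31 and 2.00 TPM in *mdx* FiMuSCs, which overlapped. WT AMuSCs held 8.20, 85.0 and 2.66 TPM, so that replicate 2 set the mean, and *mdx* AMuSCs held 2.76, 3.25 and 3.97 TPM. Myoblasts held 34.6, 210.3 and 35.6 TPM in WT and 28.0, 72.7 and 23.7 TPM in *mdx*, with replicate 2 again the highest of each. Myotubes held 2859 to 3298 TPM in WT and 2763 to 3639 TPM in *mdx*. *Tnnc2*, the fast troponin C, stood at 21.4, 14.5 and 15.0 TPM in WT FiMuSCs and 52.5, 40.3 and 30.1 TPM in *mdx* FiMuSCs, where all *mdx* libraries were higher. WT AMuSCs held 26.7, 169 and 9.59 TPM and *mdx* AMuSCs 9.99, 26.2 and 11.8 TPM. Myoblasts ranged from 7.11 to 106 TPM in WT and from 5.33 to 107 TPM in *mdx*. Myotubes held 5006 to 5830 TPM in WT and 3292 to 6637 TPM in *mdx*.

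Which isoform dominated a subunit differed by state. *Tnnt1* made up 75.1 ± 9.21% of the summed TPM of troponin T in WT FiMuSCs and 32.3 ± 5.88% in *mdx* FiMuSCs (SD, n = 3). The libraries were 64.5, 80.9 and 80.1% in WT and 25.7, 34.3 and 36.9% in *mdx* and did not overlap. The difference of -42.9 percentage points had an exact two-sided permutation p = 0.1, the smallest that 3 libraries against 3 can give, and an adjusted p = 0.6 over the 12 shares tested (3 subunits in 4 states). *Tnnt3* took 61.0 ± 6.09% in *mdx* and 23.3 ± 7.94% in WT FiMuSCs. In myotubes *Tnnt3* took 69.0 ± 0.782% in WT and 62.8 ± 5.84% in *mdx*, and *Tnnt1* 5.64 ± 1.09% and 5.71 ± 2.07%.

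For troponin I, *Tnni2* held the majority of the summed TPM in sorted cells, from 80.2 to 84.4% on average over the 4 sorted groups. *Tnni1* held the majority in culture. *Tnni1* took 80.4 ± 2.49% in WT and 63.8 ± 8.02% in *mdx* myoblasts, which did not overlap (difference of -16.6 percentage points, exact permutation p = 0.1, adjusted p = 0.6), and 61.4 ± 0.561% and 60.4 ± 5.12% in myotubes. For troponin C, *Tnnc1* took 8.96 ± 3.69% in WT and 5.61 ± 2.23% in *mdx* FiMuSCs, 75.3 ± 8.30% and 58.6 ± 21.1% in myoblasts, and 36.0 ± 2.36% and 40.3 ± 8.37% in myotubes. The larger share of *Tnnc2* in myotubes depended on the measure. By reads *Tnnc1* exceeded *Tnnc2* in WT myotube replicates 1 and 2 (100191 against 96254 and 95923 against 83590), and not in replicate 3 (96460 against 101857). It also did so in *mdx* myotubes (96427, 106285 and 186993 against 50743, 103072 and 169186). None of the 12 shares could reach an adjusted p under 0.05 in this design, and the other 10 had exact permutation p-values from 0.2 to 1.

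**Figure D2:**
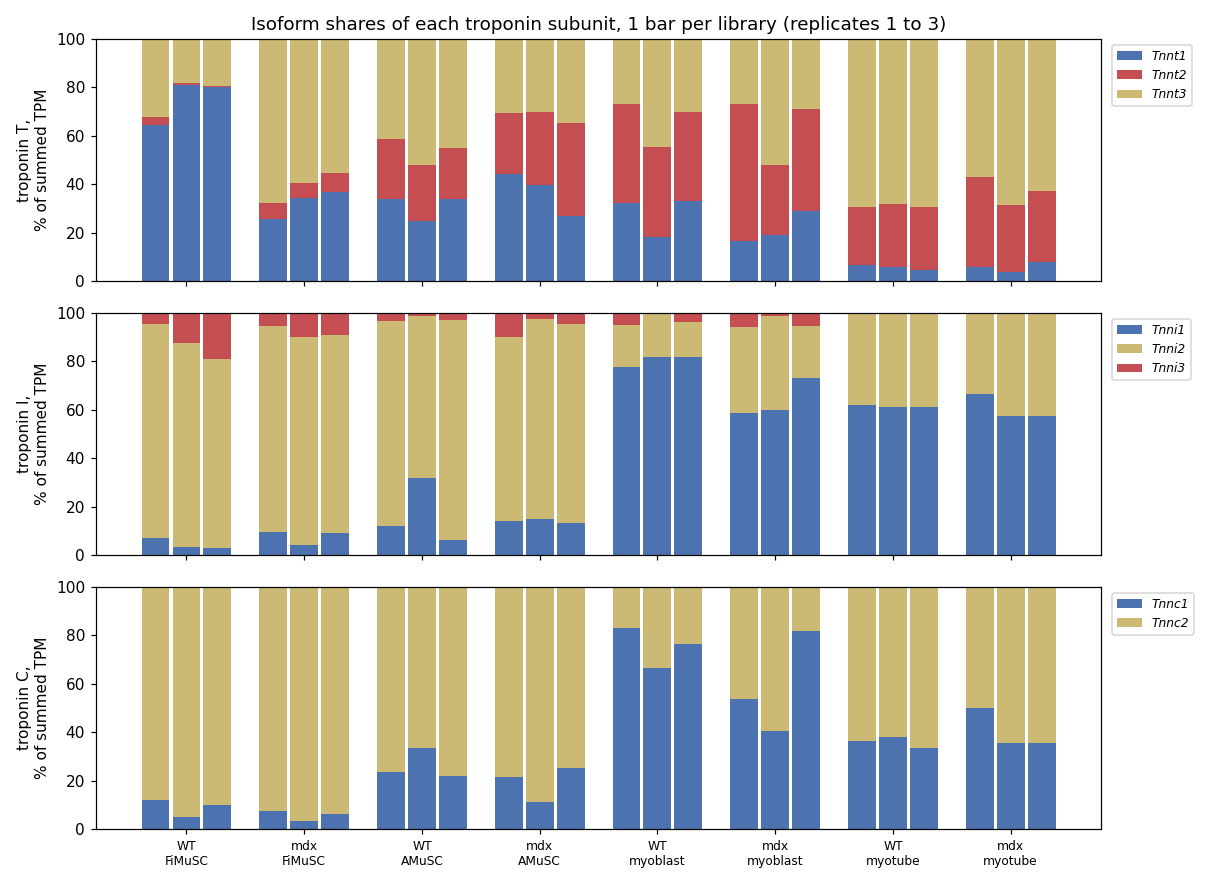
Percent of the summed TPM of troponin T, I and C taken by each gene, with 1 stacked bar per library in order of replicate. *Tnnt1* takes 64.5 to 80.9% of troponin T in WT FiMuSCs and 25.7 to 36.9% in *mdx* FiMuSCs, and *Tnni1* and *Tnnc1* take larger shares in myoblasts than in sorted cells.

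The first question was whether troponin levels differed between genotypes in the same state. By TPM, *mdx* and WT libraries were fully apart for 5 of the 8 genes in FiMuSCs (26.4% of all genes). The count was 1 for AMuSCs (36.2%), 2 for myoblasts (17.4%) and 1 for myotubes (14.1%). On the log2 scale of CPM, the count scaled to a common library total, 2 genes, *Tnnt2* and *Tnnt3*, were apart in opposite directions in FiMuSCs and in a cultured state, against 8.92% of all genes over every pair of a sorted and a cultured state. In FiMuSCs, 2 of the 8 genes were called by edgeR at an adjusted p under 0.05, against 9.67% of all 19406 genes tested in either direction. *Tnnt1* was lower in *mdx* (log2 fold change -1.35, SE 0.14, adjusted p = 0.00429), and *Tnnc2* was higher (1.26, SE 0.29, adjusted p = 0.0402). *Tnnt3* (1.10, SE 0.27, adjusted p = 0.0531), *Tnni1* (1.44, SE 0.51, adjusted p = 0.134), *Tnnt2* (1.81, SE 0.71, adjusted p = 0.168) and *Tnni2* (0.76, SE 0.29, adjusted p = 0.152) did not pass. Nor did *Tnnc1* (0.59, SE 0.62, adjusted p = 0.609) and *Tnni3* (0.21, SE 0.36, adjusted p = 0.770). The median over the 8 genes was 0.93, against -0.00192 over all genes. DESeq2 called 5 of the 8, adding *Tnnt3*, *Tnni1* and *Tnnt2* to the same 2, against 14.6% of all genes. *Tnnt1* was called in each of the 12 alternatives run, with a log2 fold change between -1.45 and -1.26 over the left-out libraries. *Tnnc2* was not called with all 24 libraries in 1 fit or without any 1 of WT FiMuSC replicates 2 and 3 and *mdx* FiMuSC replicates 1, 2 and 3 (adjusted p = 0.0581 to 0.144). Mature myofibre markers summed to 61.0 to 130 TPM in WT and 73.4 to 95.3 TPM in *mdx* FiMuSCs. Early differentiation markers summed to 24.3 to 39.2 TPM in WT and 68.9 to 74.6 TPM in *mdx*, and leukocyte markers to 41.1 to 193 TPM and 219 to 652 TPM. Sums for endothelial markers were 88.7 to 111 TPM in WT and 60.8 to 155 TPM in *mdx*, those for fibro-adipogenic progenitors 34.3 to 77.4 TPM and 106 to 131 TPM, and those for smooth muscle and pericytes 90.8 to 143 TPM and 73.2 to 156 TPM, with no marker at 0 in either group. The part of these cells or states in the troponin values was not tested.

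Other genes of the thin filament were compared from a list of 11, and the lists of contractile genes share members. In *mdx* FiMuSCs 3 were higher, 2 were lower and 6 did not pass the test, beside the 9.67% of all genes called in either direction. *Tpm2*, a tropomyosin on which troponin T sits, was higher (62.2 ± 22.6 TPM in WT and 157 ± 22.5 TPM in *mdx*, log2 fold change 1.39, SE 0.23, adjusted p = 0.0172). *Tpm3*, a tropomyosin gene that is also in the slow fibre list, was higher too (0.69, SE 0.16, adjusted p = 0.0431). *Acta1*, the skeletal actin, stood at 16.9 ± 3.36 TPM in WT and 32.1 ± 9.27 TPM in *mdx* (0.93, SE 0.24, adjusted p = 0.0585). The other gene that rose was *Neb*, which encodes nebulin, and *Lmod2* and *Nebl* fell. These 3 were named after their values were seen. Of 12 fast fibre genes 4 were higher and 1 was lower, with a median log2 fold change of 0.90, and *Myl1*, a fast myosin light chain, rose by 1.35 (SE 0.28, adjusted p = 0.0322). Of 9 slow fibre genes 1 was higher and none was lower (median -0.20), and that gene was *Tpm3*. As given below, *Tpm3* was lower in myotubes than in myoblasts of both genotypes. What its rise in *mdx* FiMuSCs reflects was not tested. The list of 25 tested genes of the thick filament, titin and Z-disc had 4 higher and 1 lower. Fast fibre genes summed to 731, 416 and 405 TPM in *mdx* FiMuSC replicates 1 to 3, and to 323 to 402 TPM in WT. Thick filament, titin and Z-disc genes summed to 762, 488 and 472 TPM in *mdx* and to 297 to 379 TPM in WT. In both lists *mdx* replicate 1 stood well above its partners, and the list counts are not given without it.

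**Figure D3:**
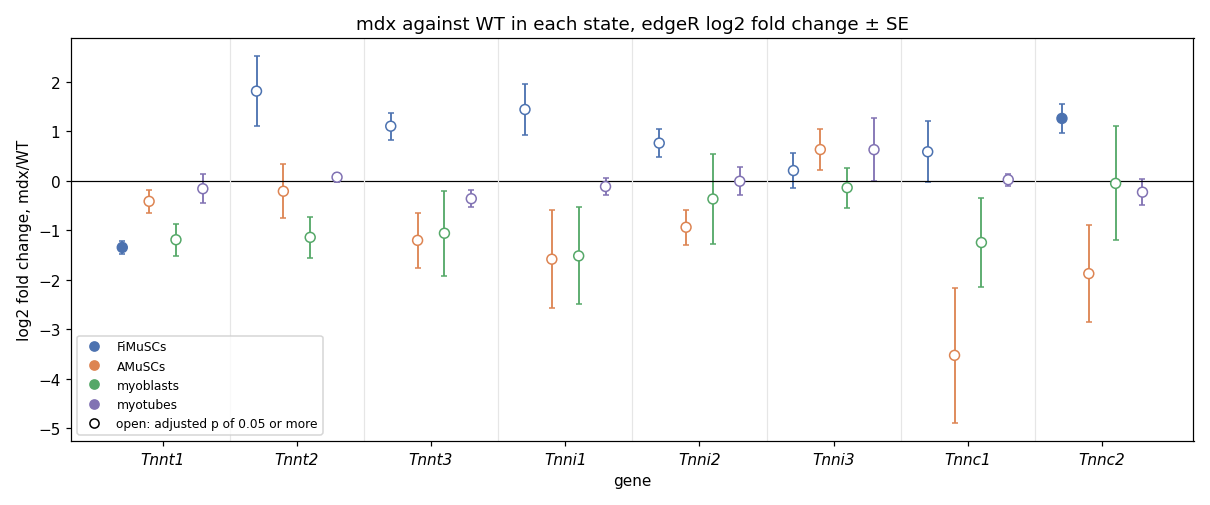
Log2 fold change of each troponin gene, *mdx* against WT, with SE bars, in FiMuSCs, AMuSCs, myoblasts and myotubes (3 libraries per group, edgeR). Filled points passed an adjusted p of 0.05, which were *Tnnt1* (-1.35) and *Tnnc2* (1.26) in FiMuSCs, and the widest bars are those of *Tnnc1* in AMuSCs (SE 1.36).

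In AMuSCs, 0 of the 8 genes were called by edgeR, against 23.7% of all genes tested. At an unadjusted p under 0.05 there were 2, *Tnnc1* (log2 fold change -3.52, SE 1.36) and *Tnni2* (-0.94, SE 0.35), against 38.1% of all genes, and DESeq2 called the same 2, against 29.9% of genes. Several of the fold changes rested on WT AMuSC replicate 2. Without it, *Tnnc1* went from -3.52 to -0.96, *Tnnc2* from -1.87 to -0.20 and *Tnnt3* from -1.20 to -0.48. The values of *Tnni1* (-1.58 to 0.26) and *Tnnt2* (-0.21 to 0.49) changed sign, and 0 genes passed an unadjusted p under 0.05 or were called (9.16% of all genes were). Without *mdx* AMuSC replicate 3, 0 troponin genes passed an unadjusted p under 0.05 or were called either. Of all 19943 genes tested in that fit, 7405 passed and 4305 were called. *Tnni2* stayed between -1.23 and -0.64 whichever library was left out. Mature myofibre markers in WT AMuSC replicate 2 are given above, and *Mb*, myoglobin, stood at 26.4 TPM in that library against at most 1.41 TPM in its partners. Without *mdx* AMuSC replicate 1, the library with the most leukocyte markers, 0 genes were called, against 19.7% of all genes, and *Tnnc1* stood at -3.39. Proliferation markers summed to 557 to 599 TPM in WT and 331 to 464 TPM in *mdx* AMuSCs, and markers of fibro-adipogenic progenitors to 3.89 to 8.80 TPM and 108 to 182 TPM. MuSC markers summed to 422 to 442 TPM in WT and 689 to 720 TPM in *mdx*, and smooth muscle and pericyte markers to 34.8 to 51.6 TPM and 118 to 193 TPM. Their part in the result was not tested. Of the other thin filament genes 1 of 11 was called, *Tpm3* (-0.43, SE 0.12, adjusted p = 0.0428). *Tpm3* was not called without WT AMuSC replicate 2 (adjusted p = 0.125) or without *mdx* AMuSC replicate 1 (adjusted p = 0.0601). By edgeR 0 of 10 fast fibre genes tested were called, and 0 without either library. Lower in *mdx* were 2 of 6 slow fibre genes tested, 1 of 4 cardiac genes and 1 of 22 genes of the thick filament, titin and Z-disc. None of these lists had a higher gene, beside the 23.7% of all genes called in either direction, and these counts are given with all libraries only.

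In myoblasts, 0 of 8 genes were called by edgeR, against 0.360% of all genes. At an unadjusted p under 0.05 there were 2 (14.4% of all genes), *Tnnt1* (log2 fold change -1.19, SE 0.32, unadjusted p = 0.00992, adjusted p = 0.222) and *Tnnt2* (-1.14, SE 0.42, adjusted p = 0.312), and DESeq2 called *Tnnt1* alone, against 4.85% of genes. Both genes separated the libraries of the genotypes. *Tnnt1* also passed with all 24 libraries in 1 fit (adjusted p = 0.0492). With both replicate 2 libraries left out, an alternative chosen after seeing the data, *Tnnt1* stood at -1.15 (adjusted p = 0.503) and *Tnnt2* at -0.69 (adjusted p = 0.250). Without WT myoblast replicate 2 alone, *Tnnc1* went from -1.25 to 0.16, *Tnnc2* from -0.05 to 1.37 and *Tnni2* from -0.37 to 0.86. Early differentiation markers summed to 272 TPM in that library and 102 TPM in *mdx* replicate 2, against 34.1 to 51.3 TPM in the other myoblast libraries.

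In myotubes, 0 of 8 genes were called by edgeR and 0 by DESeq2, against 0.591% and 4.21% of all genes, and 0 passed an unadjusted p under 0.05, against 13.6% of all genes. Log2 fold changes ran from -0.36 for *Tnnt3* (SE 0.18, adjusted p = 0.426) to 0.63 for *Tnni3* (SE 0.64, adjusted p = 0.706). For *Tnnt2* (0.07, SE 0.09) and *Tnnc1* (0.02, SE 0.12) the SE was the smallest among the 8. By edgeR 0 of 11 thin filament genes passed in myotubes, and 0 of 10 tested in myoblasts. Without *mdx* myotube replicate 1, 0 troponin genes were called in myotubes and 1 passed an unadjusted p under 0.05. Of all 16664 genes tested in that fit, 235 were called and 2598 passed.

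Most troponins were higher after injury in WT cells. Between WT FiMuSCs and AMuSCs, 6 of the 8 genes were higher, against 31.6% of all genes. The log2 fold changes were 5.33 for *Tnnt2* (SE 0.83, adjusted p = 0.00157), 4.89 for *Tnni1* (SE 1.17, adjusted p = 0.0105) and 4.69 for *Tnnc1* (SE 1.45, adjusted p = 0.0288). The fast genes followed with 2.68 for *Tnni2* (SE 0.32, adjusted p = 0.000289), 2.54 for *Tnnc2* (SE 0.91, adjusted p = 0.0473) and 2.36 for *Tnnt3* (SE 0.52, adjusted p = 0.00761). *Tnnt1* (0.19, SE 0.20, adjusted p = 0.427) and *Tnni3* (0.01, SE 0.37, adjusted p = 0.977) did not pass. Without WT AMuSC replicate 2, the same 6 genes were called, at 4.63 for *Tnnt2*, 3.04 for *Tnni1*, 2.40 for *Tnni2*, 2.12 for *Tnnc1*, 1.64 for *Tnnt3* and 0.88 for *Tnnc2*. Leaving out a WT FiMuSC library instead lowered the count, to 3 without replicate 1 and to 2 without replicate 2 or 3. Over all genes, 6095 of 20032 were higher without replicate 1, 5819 of 20092 without replicate 2 and 5996 of 20111 without replicate 3.

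In *mdx* cells 3 of the 8 genes were higher in AMuSCs than in FiMuSCs, against 15.5% of all genes. These were *Tnnt2* (log2 fold change 3.25, SE 0.42, adjusted p = 0.00238), *Tnni1* (1.81, SE 0.38, adjusted p = 0.0126) and *Tnnt1* (1.07, SE 0.23, adjusted p = 0.0132). *Tnni2* was at 0.94 (SE 0.35, adjusted p = 0.0857), *Tnnc1* at 0.52 (SE 0.50, adjusted p = 0.484), *Tnnt3* at 0.01 (SE 0.34, adjusted p = 0.989) and *Tnnc2* at -0.63 (SE 0.40, adjusted p = 0.285). Without *mdx* AMuSC replicate 1, *Tnni2* also passed (1.22, adjusted p = 0.0159). The *Tnni1* call was lost without *mdx* FiMuSC replicate 2 (adjusted p = 0.0553) and with all 24 libraries in 1 fit (adjusted p = 0.112). *Tnnt2* and *Tnni1* thus passed in both genotypes, while *Tnnt1* passed in *mdx* alone.

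The difference between the injury responses was tested over the 12 libraries of sorted cells. By edgeR 2 of 8 genes were called, against 15.1% of all genes in either direction: *Tnnt3* (difference of log2 fold changes, *mdx* minus WT, -2.38, SE 0.66, adjusted p = 0.0360) and *Tnni2* (-1.78, SE 0.50, adjusted p = 0.0342). *Tnnt1* (0.85, SE 0.31, adjusted p = 0.0875) and *Tnni3* (0.32, SE 0.56, adjusted p = 0.764) had positive differences. *Tnnc1* (-4.19, SE 1.49), *Tnnc2* (-3.20, SE 1.04), *Tnni1* (-3.09, SE 1.17) and *Tnnt2* (-2.10, SE 0.92) had adjusted p-values of 0.0634 to 0.153. DESeq2 called 6 of the 8, against 23.7% of all genes. Of the 12 fits that each left out 1 library, *Tnnt3* was called in 4 and *Tnni2* in 5. Neither was called without any 1 of WT FiMuSC replicates 2 and 3, WT AMuSC replicate 2, *mdx* FiMuSC replicates 1 and 2 and *mdx* AMuSC replicate 3. In addition *Tnnt3* was not called without *mdx* FiMuSC replicate 3 or *mdx* AMuSC replicate 1, and *Tnni2* without WT AMuSC replicate 3. Over all 12, *Tnnt3* ran from -2.70 to -1.67 and *Tnni2* from -2.06 to -1.50, and both were nearest 0 without WT AMuSC replicate 2 (adjusted p = 0.0527 and 0.0763), where *Tnnt1* was called at 1.08 (adjusted p = 0.0423). With all 24 libraries in 1 fit or with the replicate block 0 troponin genes were called, against 3710 of 22319 and 2777 of 21086 of all genes.

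**Figure D4:**
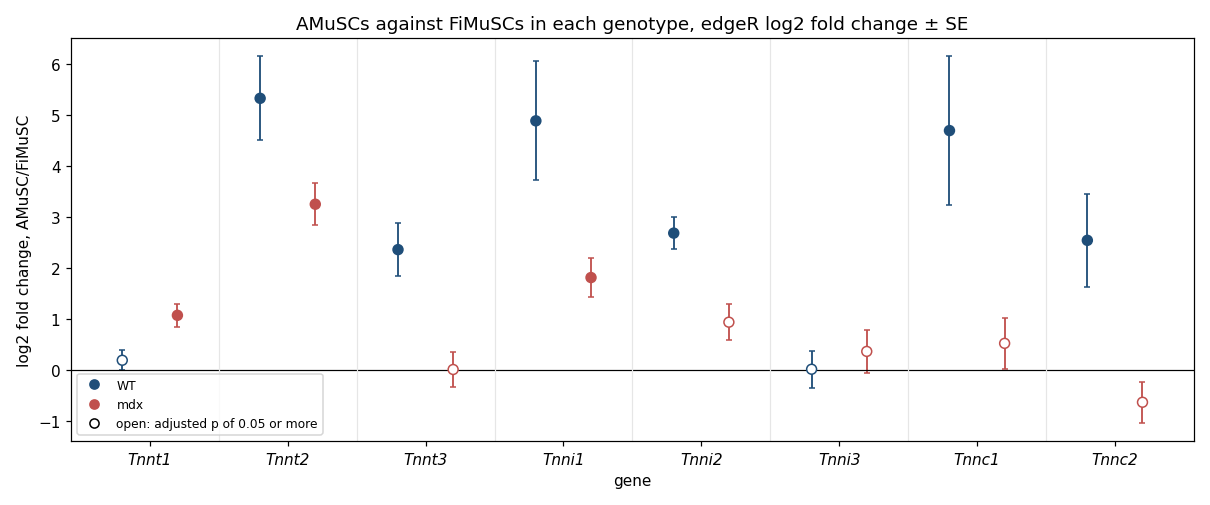
Log2 fold change of each troponin gene in AMuSCs against FiMuSCs, with SE bars, in WT (blue) and *mdx* (red), from 3 libraries per group. Filled points passed an adjusted p of 0.05, which were 6 genes in WT and 3 in *mdx*, and *Tnnt1* is the single gene filled in *mdx* only.

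The rest of the contractile apparatus was measured in the same comparison. Over all genes 31.6% were higher and 33.0% lower in WT AMuSCs, and 15.5% and 11.7% in *mdx* AMuSCs. Without WT AMuSC replicate 2 the shares were 28.4% and 29.5%, and without *mdx* AMuSC replicate 1 they were 16.3% and 12.5%. These 2 libraries were left out of the list counts after seeing the data. Of the 11 thin filament genes 7 were higher and 2 lower in WT AMuSCs (7 and 3 without WT AMuSC replicate 2), and 5 were higher and 2 lower in *mdx* AMuSCs (6 and 2 without *mdx* AMuSC replicate 1). *Tpm2* rose in WT (log2 fold change 2.72, SE 0.31, adjusted p = 0.000374) and in *mdx* (1.52, SE 0.22, adjusted p = 0.00285). *Actc1*, the cardiac actin, stood at 15.0, 48.3 and 9.70 TPM in WT AMuSCs, and rose in WT (4.67, SE 0.80, adjusted p = 0.00241, and 3.71 without replicate 2, adjusted p = 0.00145) and in *mdx* (2.47, SE 0.52, adjusted p = 0.0166). The genes of the thick filament, titin and Z-disc summed to 610, 2824 and 506 TPM in WT AMuSCs, with replicate 2 far above its partners. Of 24 tested, 11 were higher and 5 lower in WT. Without that library 7 of 25 were higher and 10 lower, and the median log2 fold change went from 1.54 to -0.37. In *mdx* 2 of 25 were higher and 8 lower, and 6 and 7 without *mdx* AMuSC replicate 1. Mature myofibre markers had 2 higher and 1 lower of 8 in WT, which became 1 and 4 without WT AMuSC replicate 2. In *mdx* 1 was higher and 4 were lower, with and without replicate 1, with *Mb* at -2.64 (SE 0.51, adjusted p = 0.00937). Without WT AMuSC replicate 2 *Mb* fell in WT too (-1.72, adjusted p = 0.00536). Fast fibre genes had 4 higher and 4 lower of 12 in WT (3 and 5 without WT AMuSC replicate 2) and 3 higher and 5 lower in *mdx* (4 and 5 without replicate 1). Slow fibre genes had 3 higher and 1 lower of 8 in WT (2 and 2 of 9 without WT AMuSC replicate 2) and 0 higher and 2 lower of 9 in *mdx* (1 and 1 without replicate 1). *Myog*, a transcription factor of early differentiation, rose in WT (3.61, SE 0.19, adjusted p = 3.39e-06) and in *mdx* (2.77, SE 0.46, adjusted p = 0.00759).

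Differentiation was compared in cultured cells. From WT myoblasts to myotubes, 7 of the 8 genes were higher, against 34.9% of all genes, and 1 was lower, against 34.5%. *Tnnc2* rose most (log2 fold change 7.30, SE 1.09, adjusted p = 0.00265), followed by *Tnni2* (6.28, SE 0.89, adjusted p = 0.00216), *Tnnt3* (5.49, SE 0.79, adjusted p = 0.00230) and *Tnnc1* (5.38, SE 0.99, adjusted p = 0.00587). *Tnni1* (4.91, SE 0.97, adjusted p = 0.00751), *Tnnt2* (3.92, SE 0.49, adjusted p = 0.00115) and *Tnnt1* (2.41, SE 0.24, adjusted p = 0.000217) rose less. The gene that fell was *Tnni3* (-1.42, SE 0.48, adjusted p = 0.0285), from 36 to 67 reads per library in myoblasts to 7 to 15 in myotubes. That call was lost without WT myoblast replicate 1 or 3 or WT myotube replicate 1 or 3 (adjusted p = 0.0564 to 0.0992), with the transcript length offset (adjusted p = 0.0892) and with the replicate block (adjusted p = 0.0639). Without WT myoblast replicate 2, the 7 rises lay between 2.66 for *Tnnt1* and 8.74 for *Tnnc2*.

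From *mdx* myoblasts to myotubes the same 7 genes were higher, against 25.8% of all genes, and *Tnni3* did not pass (-0.63, SE 0.61, adjusted p = 0.423). *Tnnc2* rose by 7.18 (SE 1.08, adjusted p = 0.00205), *Tnnc1* by 6.70 (SE 0.54, adjusted p = 0.000218), *Tnni2* by 6.69 (SE 0.80, adjusted p = 0.000847) and *Tnni1* by 6.37 (SE 0.73, adjusted p = 0.000685). *Tnnt3* rose by 6.24 (SE 0.73, adjusted p = 0.000766), *Tnnt2* by 5.18 (SE 0.17, adjusted p = 4.08e-05) and *Tnnt1* by 3.48 (SE 0.41, adjusted p = 0.000798). In both genotypes *Tnnt1* rose least of the 7 and *Tnnc2* most. The difference between the genotypes in this response was called for 0 of 8 genes by edgeR and 0 by DESeq2, against 0.0592% and 1.66% of all genes. At an unadjusted p under 0.05 there were 2, *Tnnt2* (1.28, SE 0.45) and *Tnnt1* (1.09, SE 0.48), against 12.3% of all genes. With both myoblast replicate 2 libraries left out they stood at 0.80 (adjusted p = 0.201) and 1.02 (adjusted p = 0.662), and 0 genes were called.

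**Figure D5:**
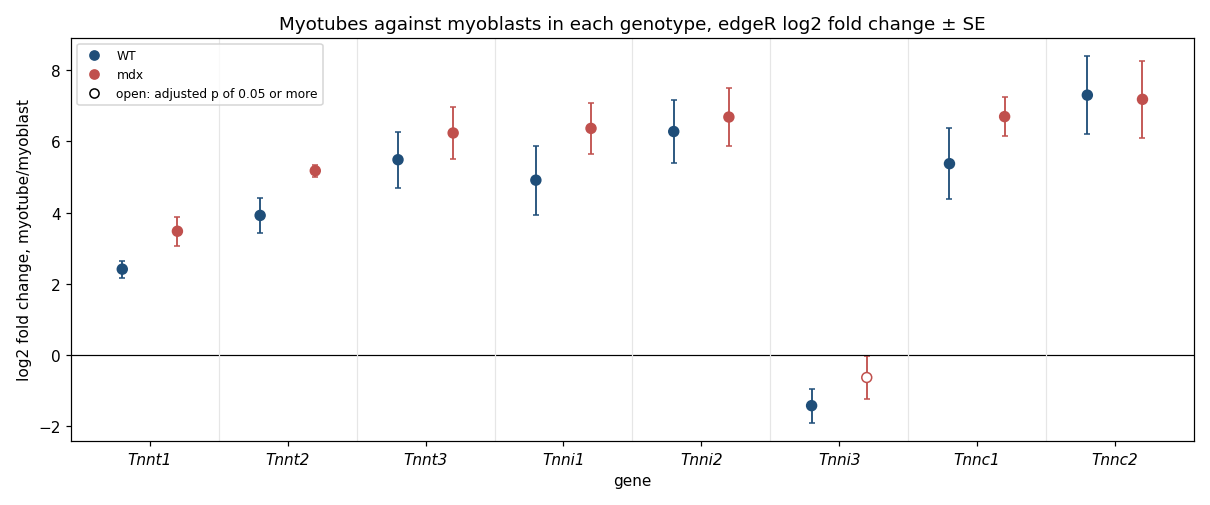
Log2 fold change of each troponin gene in myotubes against myoblasts, with SE bars, in WT (blue) and *mdx* (red), from 3 libraries per group. Filled points passed an adjusted p of 0.05, the 7 positive genes run from 2.41 for *Tnnt1* to 7.30 for *Tnnc2* in WT, and *Tnni3* is the single gene below 0.

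Other sarcomere genes were measured in the same cultures. In WT myotubes 23 of 25 tested genes of the thick filament, titin and Z-disc were higher, and 25 of 25 in *mdx*, with none lower. Of the 11 thin filament genes 9 were higher and 2 lower in WT, and 8 were higher and 2 lower in *mdx*. *Tpm2* reached 7399 ± 338 TPM in WT and 7363 ± 612 TPM in *mdx* myotubes, and *Tpm3* fell (log2 fold change -1.97, SE 0.07, adjusted p = 2.80e-07 in WT and -1.40, SE 0.28, adjusted p = 0.00595 in *mdx*). All 12 fast fibre genes and all 8 mature myofibre markers were higher in both genotypes, while 5 of 8 tested slow fibre genes were higher in WT and 7 of 8 in *mdx*, with 1 lower in each. Over all genes 34.9% were higher and 34.5% lower in WT, and 25.8% and 26.5% in *mdx*. Without the myoblast replicate 2 library of the genotype these shares were 34.0% and 33.3% in WT and 23.5% and 23.2% in *mdx*. In the same fits 24 of 25 thick filament, titin and Z-disc genes were higher in both, the thin filament, fast fibre and mature myofibre counts were as large, and 6 of 8 slow fibre genes were higher in WT and 5 of 8 in *mdx*. Most cardiac genes of the list were too low to be tested: 4 of 12 were tested in WT and 5 in *mdx*, and *Nppa* and *Nkx2-5* were listed at 0 in every myotube library. *Actc1* (2104 ± 45.8 TPM in WT myotubes) and *Myl4* (4081 ± 262 TPM), both also used by developing skeletal muscle, were the cardiac genes with the highest means.

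Of 18 regulators of muscle and fibre type genes, 4 were higher and 3 lower in *mdx* than in WT FiMuSCs, against 9.67% of all genes in either direction. In AMuSCs 3 were higher and 2 lower, near the 23.7% of all genes, and without WT AMuSC replicate 2 there were 2 higher and 0 lower, against 9.16%. By edgeR 0 passed in myoblasts or myotubes. *Myog* was higher in *mdx* FiMuSCs (8.84 ± 1.53 TPM in WT and 15.6 ± 0.477 TPM in *mdx*, log2 fold change 0.81, SE 0.15, adjusted p = 0.0223). *Myod1* was lower in *mdx* AMuSCs (150.4 ± 19.9 TPM in WT and 88.6 ± 30.8 TPM in *mdx*, -0.95, SE 0.28, adjusted p = 0.0454), and stood at -1.01 without WT AMuSC replicate 2 (adjusted p = 0.107). After injury 10 were higher (31.6% of all genes) and 6 lower (33.0%) in WT, with and without WT AMuSC replicate 2. In *mdx* 6 were higher (15.5%) and 1 lower (11.7%), and 8 and 1 without *mdx* AMuSC replicate 1. In WT myotubes 10 of 17 tested regulators were higher (34.9% of all genes) and 4 lower (34.5%), and in *mdx* myotubes 9 of 18 were higher (25.8%) and 4 lower (26.5%).

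Across the 24 libraries the log2 CPM values of the 7 genes other than *Tnni3* had Pearson correlations from 0.80 (*Tnnt2* and *Tnni2*) to 0.99 (*Tnni1* and *Tnnc1*), and *Tnni3* had negative values with each of them (-0.67 to -0.80). The 24 points fall into states that lie far apart, and genes of 1 library share its cells and depth, so these are descriptions. The neighbours *Tnnt2* and *Tnni1* had r = 0.98, *Tnnt3* and *Tnni2* r = 0.94, and *Tnnt1* and *Tnni3* r = -0.73. Over 10549 other protein-coding genes with a mean log2 CPM of at least 2, the gene most like *Tnnt3* was *Myl1* (r = 0.996), and those most like *Tnnc2* were *Casq1* (0.992), *Hspb7* and *Myl1*. *Tnni1* was most like *Actc1* (0.993), *Mybph* and *Myh3*, *Tnnc1* like *Mybph* (0.990), *Myl4* and *Myom3*, and *Tnnt2* like *Dusp27* (0.989), *Ppp1r14c* and *Synpo2l*. *Tnnt1* was most like *Stac3* (0.976), *Tmem120b* and *Abcb6*, *Tnni2* like *Bex1* (0.977), *Sntb1* and *Slc5a6*, and *Tnni3* like *Edem1* (0.855), *Man2a1* and *Stx1a*.

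By transcript, *Tnnt2*-207 took 67.8% and *Tnnc1*-202 94.3% of the TPM of their genes over all libraries, and *Tnni1*-206 (57.5%) and *Tnni1*-208 (33.3%) shared most of *Tnni1*. *Tnnt1* and *Tnnt3* were spread over many alternatively spliced transcripts. *Tnnt1*-207 (33.2%) and *Tnnt1*-206 (26.8%) led *Tnnt1*, with 30.7 and 29.2% of its TPM in WT FiMuSCs and 28.7 and 27.9% in *mdx* FiMuSCs. *Tnnt3*-220 (37.8%) and *Tnnt3*-204 (18.4%) led *Tnnt3*, and *Tnnt3*-204 was listed at 0 in WT FiMuSCs and took 12.7% of the TPM of the gene in *mdx* FiMuSCs. Transcript levels are estimates that divide reads between transcripts which share exons, and were not tested.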

How the data were processed

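For each of 24 libraries the authors deposited a transcript table holding an expected count (an estimated read number that need not be whole), a TPM value and the effective transcript length. Salmon 0.13.1, DESeq2 and the build GRCm38 appear in the submitters' notes, while strand setting, filters and pooling are not given in the sources used here. RNA was poly(A) selected and the libraries were directional.

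Expected counts and TPM were added up by Ensembl gene identifier and counts rounded, and the troponins were then picked by symbol. Of 53392 genes, 53355 matched GENCODE M21. Totals ranged from 37280196 to 64429222 (median 47357463). All genes past filterByExpr were tested with edgeR 4.0.16 in R 4.3.3 (TMM, robust quasi-likelihood test, two-sided), with Benjamini-Hochberg adjustment and calls at an adjusted p under 0.05. The comparisons were *mdx* against WT in each state, AMuSCs against FiMuSCs and myotubes against myoblasts within each genotype, and the difference of each response between genotypes. Isoform shares were tested by exact permutation. The main edgeR tests were checked on simulated counts, while the permutation tests and DESeq2 were not. Alternatives were DESeq2 1.42.0, its size factors in edgeR, no filter, all 24 libraries in 1 fit, a transcript length offset, the replicate number as a block and leaving out each library.

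Groups and replicates follow the labels, which do not say whether replicates came from separate animals or cultures. The study describes its bulk RNA-seq as done in biological triplicates, and does not say more of what a replicate was. The p-values measure the spread between these samples. Genes, lists and tests were chosen with earlier results of these data known. The text names from each list the 2 genes with the highest mean TPM, unless stated, and *Dmd*, the 3 genes most correlated with each troponin and its 2 leading transcripts. Coordinates are from GENCODE M21 and promoters from RefSeq.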

Additional observations from a re-analysis of the deposited data

Results flagged for a closer look

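The injury response differed between genotypes by a test of the difference itself for 2 of the 8 genes, against 15.1% of all genes in either direction. *Tnnt3* had a difference of log2 fold changes, *mdx* minus WT, of -2.38 (SE 0.66, edgeR adjusted p = 0.0360, range over the alternatives 0.000956 to 0.0936). *Tnni2* had a difference of -1.78 (SE 0.50, adjusted p = 0.0342, range 0.00309 to 0.210). Without 1 library at a time *Tnnt3* was called in 4 of 12 fits and *Tnni2* in 5 of 12, with differences of -2.70 to -1.67 and -2.06 to -1.50. Neither was called with all 24 libraries in 1 fit or with the replicate block.

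On the log2 CPM scale the libraries of the genotypes lay apart in opposite directions in 2 states for 2 of the 8 genes, against 8.92% of all genes over every pair of a sorted and a cultured state, and these differences were not tested. All *mdx* libraries were above all WT libraries for *Tnnt2* in FiMuSCs (log2 fold change 1.81) and below them in myoblasts (-1.14). For *Tnnt3* all *mdx* libraries were above the WT libraries in FiMuSCs (1.10) and below them in myotubes (-0.36). In AMuSCs (-1.20) the *mdx* libraries of *Tnnt3* lay below the WT libraries by TPM but overlapped them by log2 CPM. None of these 5 fold changes passed an adjusted p of 0.05 by edgeR.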

How the results depend on the processing

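Of the troponin calls, *Tnnt1* in FiMuSCs and the 7 rises in myotubes of either genotype held their direction and their call under each alternative run. Over the 6 fits that each left out 1 library, *Tnnt2* and *Tnni2* for WT injury were called in all 6. So were *Tnnt2* and *Tnnt1* for *mdx* injury. DESeq2 called 5 genes in FiMuSCs where edgeR called 2, and 2 against 0 in AMuSCs, 1 against 0 in myoblasts and 6 against 2 for the difference of the injury responses. Over all genes DESeq2 called 14.6%, 29.9%, 4.85% and 23.7% in that order, and edgeR 9.67%, 23.7%, 0.360% and 15.1%. With all 24 libraries in 1 fit the counts in the same order were 1, 1, 1 and 0, against 1550, 6380, 432 and 3710 of all 22319 genes. Without the filter 3 genes were called for WT injury and 1 for the difference, and with the length offset 1 for the difference. Over all genes the calls in the same order were 12667 of 32922, 2526 of 35447 and 1779 of 21086. Leaving out each library gave 1 to 4 calls in FiMuSCs, 2 to 6 for WT injury and 0 to 3 for the difference. Over all genes those fits gave 511 to 2503, 11666 to 12333 and 1793 to 4878 calls. The cause of these changes was not tested.

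Same-numbered replicates had correlations of -0.12 to 0.29, and no comparison had all 3 over 0.1, so the numbers were not taken as a pairing. Each sample correlated best with its own number only between WT myotubes and myoblasts. With the replicate block 3 genes were called in FiMuSCs, 2 in AMuSCs, 4 for WT injury and 0 for the difference, and *Tnnt3* turned to -0.0529 for *mdx* injury. Over all genes the calls in the same order were 1148 of 19406, 3252 of 19321, 11818 of 19359 and 2777 of 21086.

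Values that changed sign were near 0 or rested on 1 library. The length offset gave 0.0797 for *Tnnc2* in myoblasts, 0.0288 for *Tnni2* in myotubes, -0.00183 for *Tnnt3* after *mdx* injury and -0.0672 for *Tnni3* in the injury difference. The fit of 24 libraries gave 0.00487 for *Tnni2* in myotubes and -0.0728 for *Tnni3* after WT injury, and no filter gave -0.0276 for *Tnnt3* after *mdx* injury. By reads, the *Tnnt1* share in myotubes differed by -0.0566 points. Over left-out libraries it ran from -0.986 to 1.08 points, the *Tnni1* share from -7.88 to 5.06 in AMuSCs and -3.89 to 0.567 in myotubes, and the *Tnnc1* share in myotubes from -0.521 to 6.75.

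Leaving out each library in turn moved these log2 fold changes across 0. In FiMuSCs the range was *Tnnc1* -0.0207 to 1.21 and *Tnni3* -0.00657 to 0.47. In AMuSCs the range was *Tnni1* -2.05 to 0.26 and *Tnnt2* -0.51 to 0.49. In myoblasts the range was *Tnnc1* -1.94 to 0.16, *Tnnc2* -1.60 to 1.37, *Tnni2* -1.38 to 0.86 and *Tnni3* -0.34 to 0.11. In myotubes the range was *Tnnc1* -0.0831 to 0.0759, *Tnnc2* -0.45 to 0.0308, *Tnni1* -0.24 to 0.0695, *Tnni2* -0.22 to 0.28 and *Tnnt1* -0.56 to 0.0304. For WT injury the range was *Tnni3* -0.20 to 0.32 and *Tnnt1* -0.0397 to 0.35. For *mdx* injury the range was *Tnnt3* -0.30 to 0.30. For the differentiation difference the range was *Tnnc1* -0.0811 to 2.02, *Tnnc2* -1.53 to 1.42, *Tnni2* -0.82 to 1.41 and *Tnnt3* -0.26 to 1.73.

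Over all genes, the alternatives other than leave-outs gave 1148 to 3135 calls in FiMuSCs, 2889 to 6380 in AMuSCs, 7 to 889 in myoblasts, 15 to 686 in myotubes, 1779 to 4595 for the injury difference and 0 to 287 for the differentiation difference. The median of all genes moved to -0.16 for WT injury with 24 libraries in 1 fit. *Tnni3*, at 7 to 119 reads per library, is limited by depth.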
